A study of Sus scrofa with 22 samples.

Results

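BMP2 and BMP4, the target genes ID1, ID2 and ID3, and the pseudoreceptor BAMBI were followed through pig embryos of embryonic day 0 to 14 (E0 to E14) and in cultured epiblast stem cells. They were taken by name from the deposited tables of group means and standard deviations (SD), which held 6 of 6 among 25749 genes, and were read in all 39 groups. Bone morphogenetic proteins are secreted ligands that bind pairs of type I and type II receptor kinases on the receiving cell. The receptors phosphorylate SMAD1, SMAD5 and SMAD9, which enter the nucleus with SMAD4 and switch on genes such as the ID genes, whose proteins lack a DNA-binding region and hold basic helix-loop-helix factors inactive. BAMBI resembles a type I receptor without a kinase and dampens the response. In mammalian embryos the pathway is known for the patterning of the extraembryonic tissues and of the mesoderm, and, in pluripotent cells, for opposite roles: with LIF it sustains self-renewal of mouse embryonic stem cells, whereas it drives differentiation of human ones.

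Polyadenylated RNA of single cells was sequenced by a modified Smart-seq2 method with cell barcodes. The pgEpiSC libraries, labelled pgEpiSC_high and pgEpiSC_low, held 96 and 93 cells of cultured stem cell lines that were taken from the pregastrulation epiblast of E10 pig embryos. The labels do not say what high and low mean. The 20 embryo libraries, P1 to P20, held cells that the authors placed in 37 groups: Oocyte, Zygote, 2C, 4C and 8C (cell number), Morula_E4, trophectoderm (TE, the precursor of the outer placental layer), inner cell mass (ICM), hypoblast (the precursor of the yolk sac lining), epiblast (the precursor of the embryo proper), and endoderm, mesoderm and ectoderm of E11 to E14. Group names such as Mesdoderm and Defi_Endoderm are spelled as in the authors' columns. No treatment or genotype distinguished the embryonic groups, and the labels give no breed, sex or number of embryos.

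In all there were 1647 cells, with 7415760 to 39405309 counts per library and a median of 274531 counts and 9120 detected genes per cell. Levels are given on 2 scales. The deposited level is the authors' mean over cells of log2(CPM/10 + 1), with the SD over cells, where CPM is counts per 1000000 counts of pig genes. The other is the CPM of a library sum, in which the counts of all cells of a group in 1 library were added. A sum is the unit of every test, and nothing says that libraries came from separate embryos, so p-values reflect a spread between sums that may be technical. In a sum, fewer cells of a type and less RNA per cell cannot be told apart. The groups met their labels in part, since 3 of 5 epiblast markers (SOX2, NANOG and TDGF1), 4 of 6 hypoblast markers (GATA4, PDGFRA, SOX17 and FOXA2) and 5 of 7 trophectoderm markers (GATA2, GATA3, KRT8, KRT18 and ELF3) had their highest deposited level in a group of their own lineage. For mesoderm this held for 2 of 6 markers, KDR and EOMES, and for definitive endoderm for 1 of 5, FOXA1. Among the others, POU5F1, GATA6 and GSC were highest in preICM_E5, MESP1 in 8C, HAND1 in TE_E14, CER1 and MIXL1 in Ectoderm_E13 and the trophectoderm factor CDX2 in Defi_Endoderm_E14. TBXT, a gene of the primitive streak, did not pass a deposited level of 0.19 in any group.

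The early sums did not follow the order of their labels, which touches every value for 4C. Across 12614 genes that reached 10 CPM in at least 1 early sum, the 4C sum of P1 (17 cells) had a Spearman correlation of 0.82 with Morula_E4 of the same library and of 0.64 with the 4C sum of P13 (6 cells). The 4C sum of P13 had a correlation of 0.95 with 2C of P13, and for 8C the correlation with 2C of P1 was 0.89 in P19 and 0.88 in P20, whereas with Morula_E4 of P1 it was 0.45 and 0.42. These are descriptions across genes, which are not independent replicates, and they were computed after the values of the 6 genes had been seen.

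**Figure D1:**
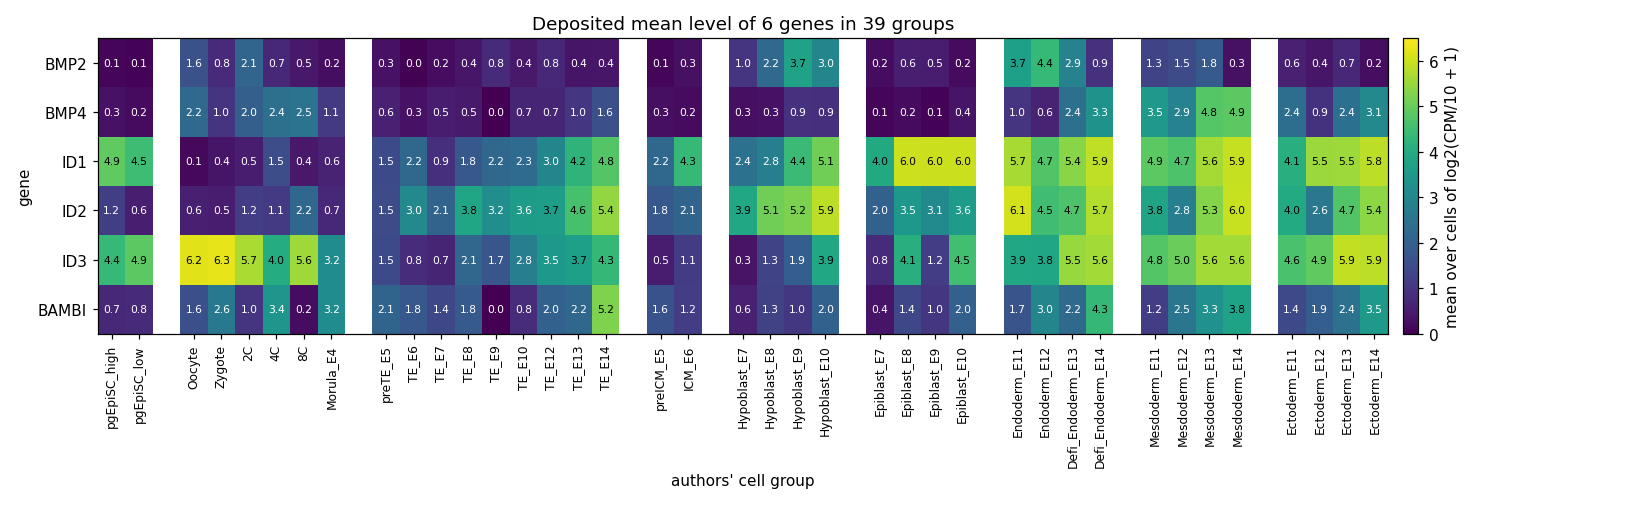
Deposited mean level, log2(CPM/10 + 1), of each gene (rows) in each of the 39 groups (columns, by lineage and then by age); brighter cells are higher and the printed number is the level. ID3 was brightest in Zygote (6.25) and Oocyte (6.21), BMP2 in Endoderm_E12 (4.36), BMP4 in Mesdoderm_E14 (4.86), ID1 in Epiblast_E8 (6.0), ID2 in Endoderm_E11 (6.06) and BAMBI in TE_E14 (5.24).

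BMP2, on chromosome 17 (gene span 15750487 to 15762982, Sscrofa11.1), is a ligand made by the visceral endoderm of the mouse, the counterpart of the hypoblast. Its deposited level was highest in Endoderm_E12 (4.36 ± 1.17, SD over 18 cells), followed by Hypoblast_E9 (3.75 ± 1.15, 57 cells), Endoderm_E11 (3.67 ± 1.65, 13 cells), Hypoblast_E10 (2.99 ± 1.27, 90 cells) and Defi_Endoderm_E13 (2.87 ± 1.5, 12 cells). It was lowest in TE_E6 at 0.03 ± 0.19. The order is one of broad zones, since no gap between neighbouring groups exceeded the larger of their SDs (0 of 38 neighbouring pairs). Maternal cells also held BMP2, with deposited levels of 1.62 ± 1.58 in Oocyte and 2.12 ± 1.01 in 2C.

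BMP4, on chromosome 1 (183415989 to 183422888), is the ligand most closely tied to mesoderm formation in the mouse. It was highest in mesoderm of 3 days, at 4.86 ± 1.37 in Mesdoderm_E14 (25 cells), 4.78 ± 0.76 in Mesdoderm_E13 (20 cells) and 3.51 ± 1.01 in Mesdoderm_E11 (33 cells), followed by Defi_Endoderm_E14 at 3.31 ± 0.98 and Ectoderm_E14 at 3.06 ± 1.35, while Mesdoderm_E12 came after these at 2.88 ± 1.66 (20 cells). Between Mesdoderm_E13 and Mesdoderm_E11 the gap of 1.26 exceeded both SDs, the only such gap among 38 for BMP4. Like BMP2 it was present before the morula, at 2.21 ± 0.83 in Oocyte, 2.40 ± 1.03 in 4C and 2.47 ± 0.77 in 8C. It was near 0 in the epiblast of every day, from 0.07 in Epiblast_E9 to 0.36 in Epiblast_E10.

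Among the target genes, ID1 (chromosome 17, 35316518 to 35317742) was nearly absent from maternal cells, with a deposited level of 0.13 ± 0.20 in Oocyte and 0.36 ± 0.40 in Zygote. It was highest in Epiblast_E8 (6.0 ± 1.23), Epiblast_E9 (5.98 ± 0.26) and Epiblast_E10 (5.98 ± 0.47), with Mesdoderm_E14 (5.94 ± 0.71) and Defi_Endoderm_E14 (5.89 ± 0.51) close behind. ID2 (chromosome 3, 127500759 to 127503207) led in Endoderm_E11 (6.06 ± 0.53), Mesdoderm_E14 (5.95 ± 0.60) and Hypoblast_E10 (5.86 ± 0.64). No gap between neighbours exceeded the SDs for ID1, ID2, ID3 or BAMBI.

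ID3 (chromosome 6, 81422541 to 81424169) had the reverse start: its level was 6.25 ± 0.20 in Zygote, 6.21 ± 0.53 in Oocyte, 5.68 ± 0.41 in 2C and 5.55 ± 0.70 in 8C. It was under 1.5 in preTE_E5, preICM_E5, TE_E6, ICM_E6 and all E7 groups, with the lowest level in Hypoblast_E7 (0.35 ± 0.66). By E13 and E14 it was 5.91 ± 0.54 in Ectoderm_E13 and 5.85 ± 0.73 in Ectoderm_E14. BAMBI (chromosome 10, 40053368 to 40058590) was highest in TE_E14 (5.24 ± 0.54), Defi_Endoderm_E14 (4.34 ± 0.97) and Mesdoderm_E14 (3.78 ± 1.63) and had an early maximum in 4C (3.40 ± 1.22) and Morula_E4 (3.16 ± 0.82).

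The first days were compared step by step, each stage against the nearest earlier one with 2 or more library sums. All comparisons between stages or lineages used the quasi-likelihood test of edgeR, adjusted over all genes by the Benjamini-Hochberg method, and a gene was called under an adjusted p of 0.05. From 2C to the morula, BAMBI and ID3 carried the clearest changes. In sums of Morula_E4 BAMBI had 120 CPM in P1 and 89.3 CPM in P2, against 5.48 CPM in P19 and 1.90 CPM in P20 for 8C. The groups did not overlap, and BAMBI rose by 4.63 ± 0.89 (log2 ± SE, adjusted p = 5.9e-05). In the same step 30% of all genes tested were called, and of the 6 genes 1 was higher and 3 were lower. No library held both Morula_E4 and 8C, so stage and library cannot be told apart.

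ID3 had 130 CPM in P1 and 16.8 CPM in P2 in Morula_E4, against 404 CPM and 479 CPM in 8C. Both morula sums lay below both 8C sums, and ID3 fell by 2.91 ± 0.75 (adjusted p = 0.0023). Without P2 its change was -2.14 and no longer called (adjusted p = 0.088). BMP4 had 20.4 CPM and 18.3 CPM in Morula_E4, against 74.5 CPM and 53.2 CPM in 8C, and fell by 2.0 ± 0.78 (adjusted p = 0.047). ID2 had 17.6 CPM and 16.8 CPM in Morula_E4, against 63.2 CPM and 48.0 CPM in 8C, and fell by 1.98 ± 0.66 (adjusted p = 0.019). Neither BMP4 nor ID2 was called without P1 (adjusted p = 0.11 and 0.053), P2 (0.15 and 0.083) or P20 (0.11 and 0.06).

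The steps into and out of 4C rested on P1. BAMBI had 156 CPM in the 4C sum of P1 and 12.7 CPM in that of P13, against 13.5 CPM in P1 and 9.44 CPM in P13 for 2C. Only the 4C sum of P1 was high, so the rise of 3.16 ± 0.84 in 4C (adjusted p = 0.015, with 4.52% of all genes called) was 0.54 without P1 (adjusted p = 1) and 2.73 with DESeq2's size factors (adjusted p = 0.059). In 8C against 4C, with 11.2% of all genes called, BAMBI fell by 4.21 ± 0.87 (adjusted p = 0.00055), which became -1.19 without P1 (adjusted p = 0.58). ID2 had 63.2 CPM and 48.0 CPM in 8C, against 5.90 CPM in P1 and 37.7 CPM in P13 for 4C. It rose by 2.11 ± 0.65 (adjusted p = 0.026), which became 1.25 without P1 (adjusted p = 0.46), 2.08 without P20 (adjusted p = 0.11) and 1.88 with DESeq2's size factors (adjusted p = 0.061). ID3 was also low in the 4C sum of P1, at 105 CPM, against 404 CPM in that of P13, and its change in 8C was 1.52 ± 0.71 (adjusted p = 0.17). Stage and library cannot be told apart in 8C against 4C, since no library held both.

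ID1 differed between libraries of the same early stage. It had 34.0 CPM in P13 and 1.13 CPM in P1 for 2C, 54.0 CPM in P13 and 10.9 CPM in P1 for 4C, and 28.0 CPM in P19 and 0.82 CPM in P20 for 8C. P13 and P19 also held ectoderm cells with 642 CPM and 514 CPM of ID1, while P1 held no group later than the morula. Whether cells of 1 library exchanged reads was not tested.

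**Figure D2:**
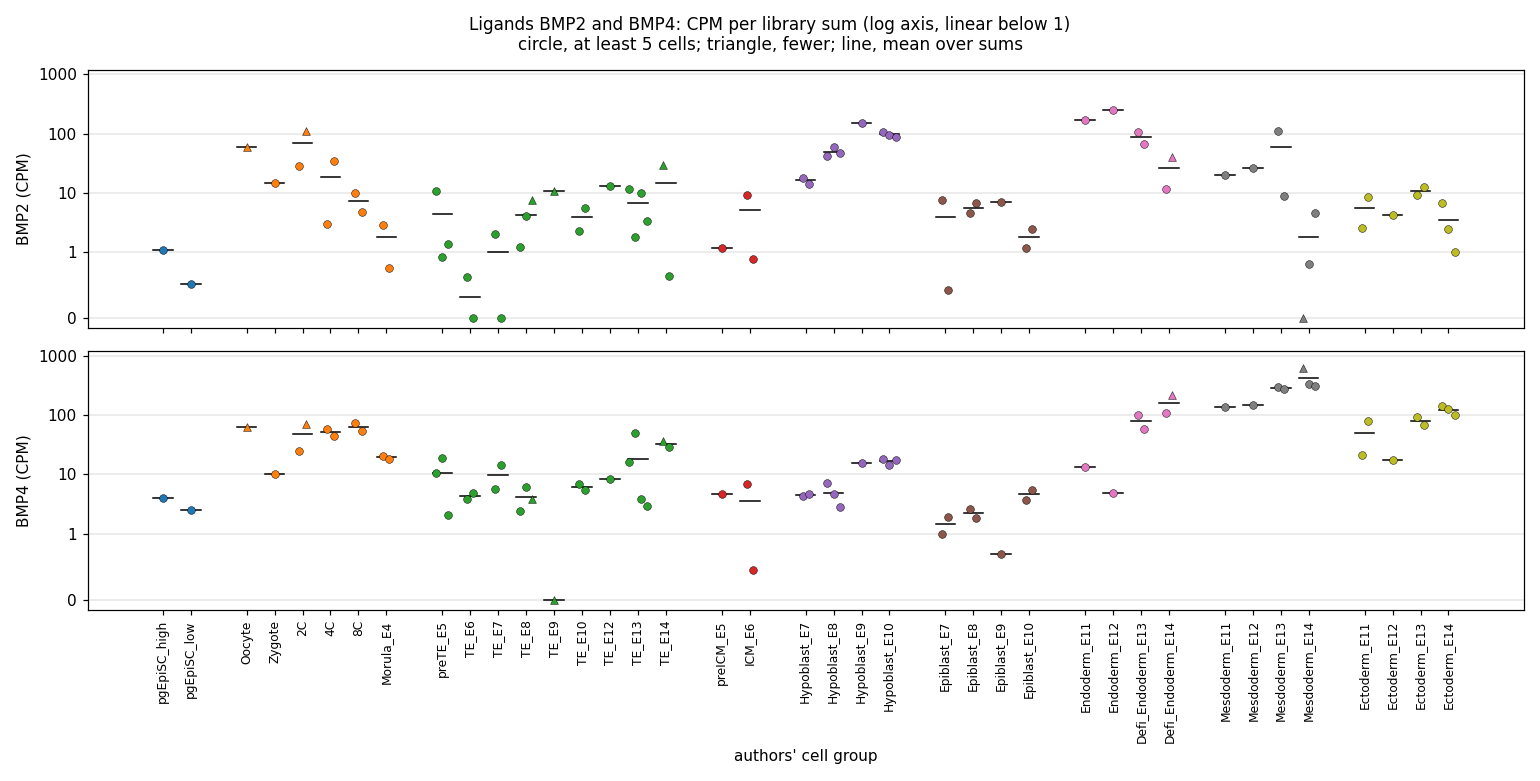
CPM of BMP2 (top) and BMP4 (bottom) in each library sum, by group, on a log axis that is linear below 1; circles are sums of at least 5 cells, triangles of fewer, and lines are means over sums. BMP2 stands out in hypoblast and endoderm (Endoderm_E12, 255 CPM) and BMP4 in mesoderm (277 CPM or more in E13 and E14), while both are low in pgEpiSC.

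In the first trophectoderm ID2 was the gene called in the fit without the library as a term. It had 133 CPM in P14 and 109 CPM in P15 for TE_E6, against 29.2 CPM in P13, 5.57 CPM in P14 and 43.0 CPM in P2 for preTE_E5. The groups did not overlap, and ID2 rose by 2.61 ± 0.56 (adjusted p = 0.0026), the only one of 6 called where 4.86% of all genes were. P14 held both stages and decided the call, since the change without P14 was 1.94 (adjusted p = 0.18). Within P14, ID1 had 43.7 CPM in TE_E6, against 4.02 CPM in preTE_E5, and in P15 it had 109 CPM in TE_E6. Its change of 2.17 ± 0.73 was not called (adjusted p = 0.072), whereas with the library as a term it was 4.35 (adjusted p = 7.6e-08), and that of ID3 was 3.34 (adjusted p = 0.00059), against 0.11 ± 0.66 without that term. Only P14 held both stages, and its preTE_E5 sum had 8 cells, with 13 counts of ID1 and 6 counts of ID3. The other preTE_E5 sums were higher, with 36.4 CPM of ID1 in P13 and 26.7 CPM in P2. ID3 had 48.7 CPM in P13, above TE_E6 of P14 (15.4 CPM) and P15 (21.9 CPM), and in P2 it lay between these. A rise of ID1 or ID3 across libraries is therefore not read from the fit with that term.

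The steps from TE_E6 to TE_E7, TE_E8 and TE_E10 brought no call among the 6 genes, with 0.755%, 0.0304% and 0.13% of all genes called, and preTE_E5 against Morula_E4 brought none where 0.0521% were. From ICM_E6 to Epiblast_E7 and to Hypoblast_E7, again 0 of 6 were called (1.84% and 0.972% of all genes). Within the same library and day, TE against ICM gave 0 of 5 tested, BMP2 having too few counts to test. There 0% of all genes were called and 1602 of 11049 had an unadjusted p under 0.05. ID1 was lower in TE in 3 of 3 blocks, with a change of -1.37 ± 0.37 (adjusted p = 0.2 in edgeR and 0.0056 in DESeq2).

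ID3 was higher in the epiblast of E8 than in that of E7. It had 154 CPM in P4 and 216 CPM in P5 for Epiblast_E8, against 20.5 CPM in P8 and 11.8 CPM in P9 for Epiblast_E7. The 2 days did not overlap, and ID3 rose by 3.31 ± 0.78 (adjusted p = 0.031, with 0.594% of all genes called). No library held more than 1 epiblast day, so day and library cannot be told apart. Without any 1 of the 4 libraries the change stayed between 2.93 and 3.67 and was not called (adjusted p from 0.085 to 0.27). The single library of Epiblast_E9, P17 with 7 cells, was low again at 16.3 CPM, and both libraries of Epiblast_E10 were high, at 223 CPM and 354 CPM. Accordingly Epiblast E9 and E10 against E7 and E8 gave an ID3 change of 0.05 ± 0.58 with P17 and 2.15 without it (adjusted p = 1 and 0.041). That comparison called 0 of 6 genes, with 2.39% of all genes called.

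In the hypoblast ID3 was the gene that passed the test, and the ligands and ID1 had the same direction without passing it. ID3 had 54.2 to 227 CPM in the 4 sums of Hypoblast E9 and E10 and 3.31 to 44.6 CPM in the 5 sums of Hypoblast E7 and E8. The ranges did not overlap in CPM, and ID3 rose by 2.96 ± 0.52 (adjusted p = 0.0017), the only one of the 6 genes called where 0.351% of all genes were. It was called under every alternative run. Library P5 held cells of both ages and gave 165 CPM in Hypoblast_E10, against 44.6 CPM in Hypoblast_E8.

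BMP2 had 88.6 to 152 CPM in Hypoblast E9 and E10 and 14.4 to 59.4 CPM in Hypoblast E7 and E8, with a change of 1.85 ± 0.72 (adjusted p = 0.25). ID1 had 247 to 396 CPM in the later sums and 58.9 to 93.5 CPM in the earlier ones, with a change of 1.6 ± 0.56 (adjusted p = 0.2). BMP4 had 14.2 to 18.2 CPM in the later sums and 2.83 to 7.27 CPM in the earlier ones, with a change of 1.53 ± 0.54 (adjusted p = 0.21). None of these ranges overlapped, whereas those of ID2 (383 to 752 against 143 to 448 CPM) and BAMBI (20.4 to 53.8 against 4.48 to 29.2 CPM) did. The share of all genes without overlap is not given, and the median change over all genes was 0.17. Within P5 the values were 96.0 CPM of BMP2, 343 CPM of ID1 and 14.2 CPM of BMP4 in Hypoblast_E10, against 46.6, 93.5 and 2.83 CPM in Hypoblast_E8. The step from Hypoblast_E7 to Hypoblast_E8 called 0 of 6 genes, with 0.239% of all genes called.

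In the trophectoderm 4 of 6 genes rose at E12 to E14 against E6 to E8, where 14.5% of all genes were called. ID1 had from 46.5 to 530 CPM in the 6 later sums, with a median of 231 CPM, against 12.2 to 109 CPM with a median of 35.9 CPM in the 6 earlier sums. The ranges overlapped, since the TE_E13 sum of P9 and the TE_E12 sum of P10 (84.3 CPM) lay below the TE_E6 sum of P15 (109 CPM), and ID1 rose by 2.36 ± 0.53 (adjusted p = 0.0012). ID3 had 45.6 to 243 CPM in the later sums, with a median of 181 CPM, against 2.02 to 76.4 CPM with a median of 19.1 CPM in the earlier ones. It rose by 2.43 ± 0.47 (adjusted p = 0.00016), and both ID1 and ID3 were called under every alternative run. P9 held both ages and gave 46.5 CPM of ID1 and 45.6 CPM of ID3 in TE_E13, against 14.2 CPM and 2.02 CPM in TE_E7. The TE_E7 sum of P9 had 5 cells, with 7 counts of ID1 and 1 count of ID3, so these values are coarse.

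ID2 and BAMBI rose with less certainty. ID2 had a median of 270 CPM in the later sums and 95.4 CPM in the earlier ones and rose by 1.40 ± 0.39 (adjusted p = 0.01). That call was lost without P3 (1.06, adjusted p = 0.094), without P12 (1.03, adjusted p = 0.12) and with at least 10 cells per sum (0.84, adjusted p = 0.23). BAMBI had a median of 81.7 CPM in the later sums and 27.2 CPM in the earlier ones and rose by 1.40 ± 0.49 (adjusted p = 0.046). It was lost without any 1 of P3, P8, P12, P14, P15, P18 and P19, with changes from 0.41 without P12, which held the only tested TE_E14 sum at 434 CPM, to 1.49 without P14. BMP4 was not called (1.41 ± 0.53, adjusted p = 0.066), nor was BMP2 (1.43 ± 0.95, adjusted p = 0.41).

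The 4 sums of TE_E13 differed from each other. ID1 had 530 CPM in P18 and 402 CPM in P19, but 182 CPM in P10 and 46.5 CPM in P9, and BAMBI had 109, 151, 54.4 and 28.1 CPM in the same order. The summed level of 7 trophectoderm markers was 3515 CPM in P18, 3333 CPM in P19, 5346 CPM in P10 and 4385 CPM in P9, and that of 6 mesoderm markers, which include HAND1, was 937, 755, 444 and 400 CPM. HAND1 alone had at least 381 CPM after TMM scaling in every later trophectoderm sum, and its highest deposited level was in TE_E14 (5.96). The mesoderm marker sum is therefore no measure of mesoderm cells in these sums. The part of either cell type in the ID1 and BAMBI levels was not tested.

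Of the other genes of a list of 57 BMP pathway genes, 51 were tested in this comparison, and 14 were higher and 1 was lower in the later trophectoderm. The median log2 change was 1.44 over these 51 genes and 0.06 over all genes. Among those with a count in at least 1 earlier sum, the largest changes were those of HAND1, a factor of trophectoderm and mesoderm (11.11 ± 1.04), the receptor-activated SMAD9 (8.85 ± 1.39) and SMAD1 (7.23 ± 0.77), and ID4 (2.90 ± 0.76). Each of these had 0 counts in at least 1 earlier sum. Their mean CPM after TMM scaling was 2.11, 0.16, 2.47 and 3.05 in the earlier sums, against 619, 29.0, 84.0 and 17.7 in the later ones. The sizes of these changes therefore rest on values near 0. CER1, a secreted inhibitor, and the ligand BMP5 were called too and had no count in the earlier sums. BMPR1A, a type I receptor, rose by 2.18 ± 0.48 and the ligand BMP6 by 1.55 ± 0.39, while GDF9, an oocyte ligand, fell by 2.53 ± 0.82.

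**Figure D3:**
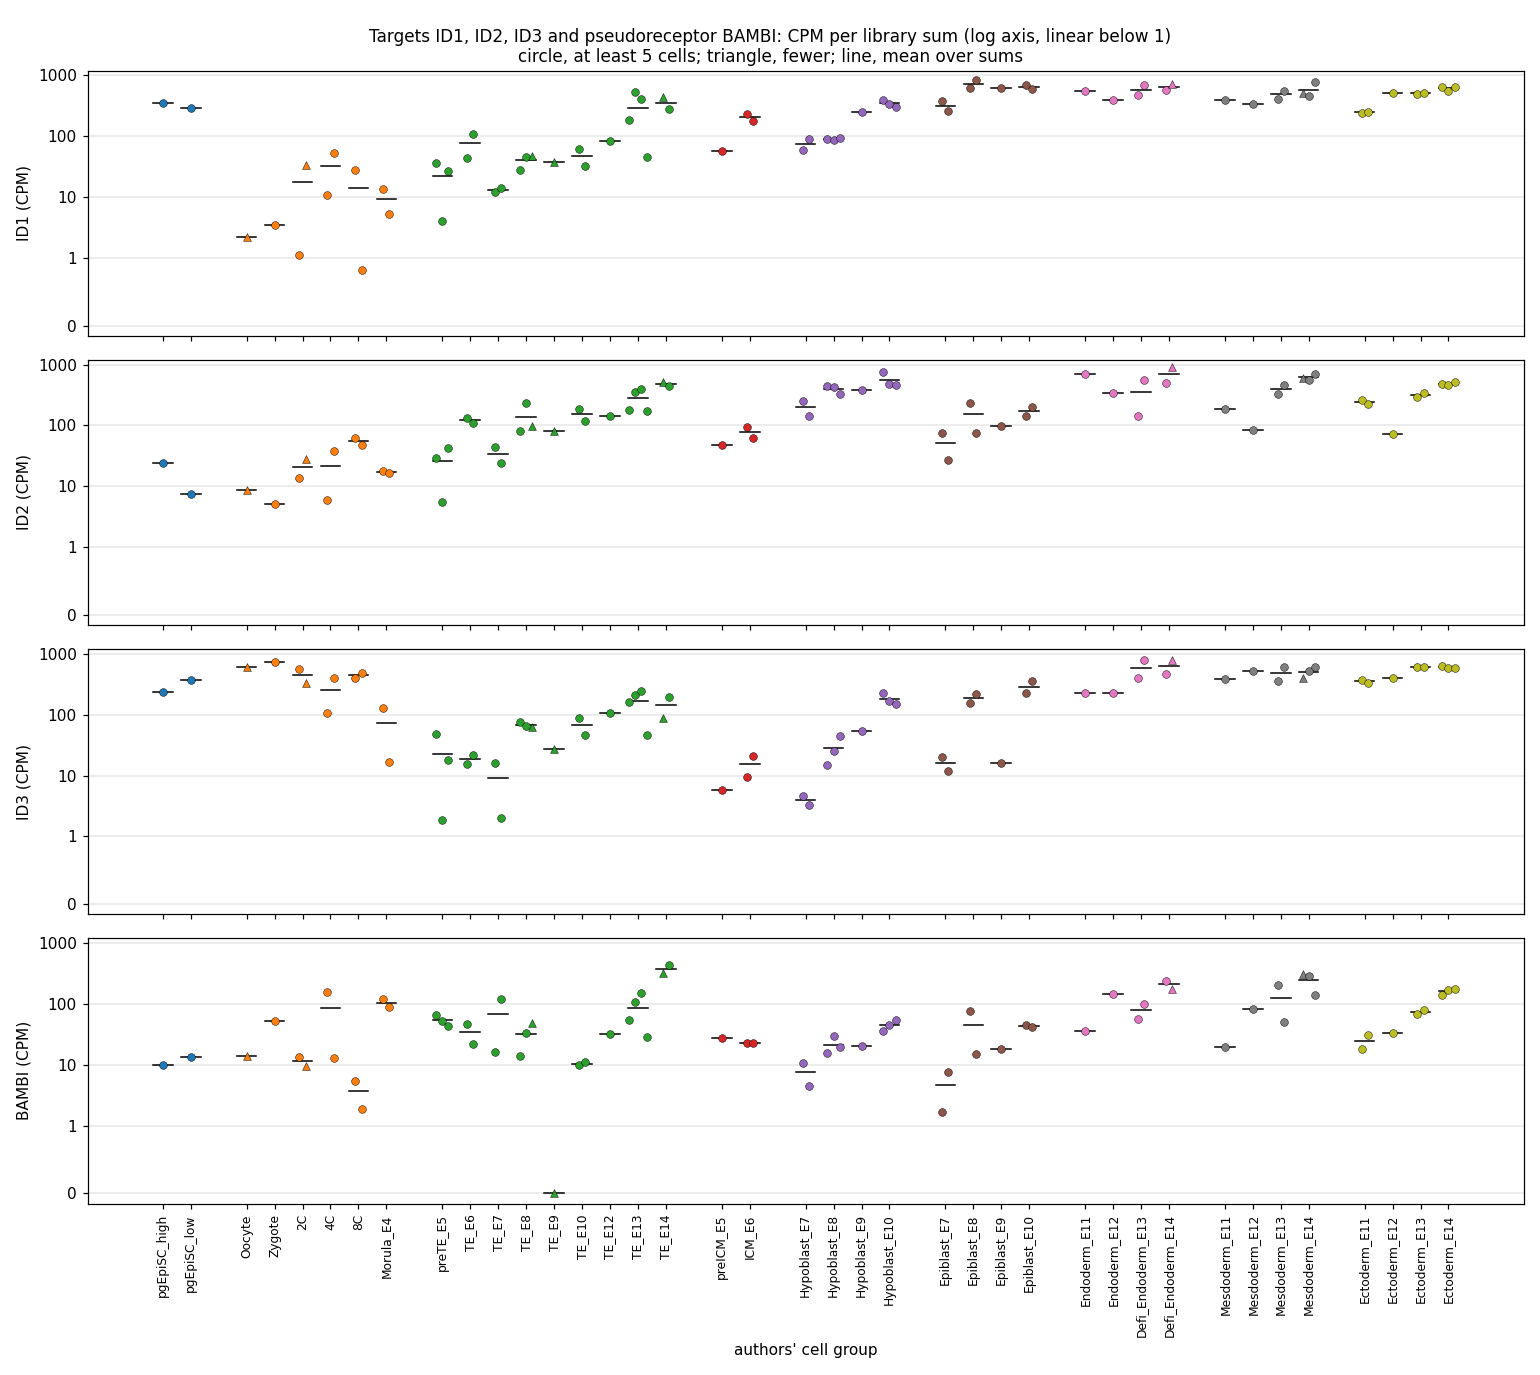
CPM of ID1, ID2, ID3 and BAMBI (top to bottom) in each library sum, by group, on a log axis that is linear below 1; symbols and lines as for the ligands. ID3 starts high (728 CPM in Zygote), is lowest between E5 and E7 (1.86 CPM in preTE_E5 of P14) and is 578 CPM or more in Ectoderm_E13 and Ectoderm_E14, whereas ID1 is at 592 CPM or more in Epiblast_E8 to Epiblast_E10.

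Lineages of the same library and day were set against each other next, which removes the library from the comparison. BMP2 separated the hypoblast from both of its neighbours. In 6 blocks, BMP2 had 107 against 2.46 CPM in P16 at E10, 152 against 7.20 CPM in P17 at E9, 59.4 against 4.55 CPM in P4 and 46.6 against 6.80 CPM in P5 at E8, and 18.2 against 7.59 CPM in P8 and 14.4 against 0.43 CPM in P9 at E7, with the hypoblast value ahead of the epiblast value each time. Hypoblast was above epiblast in 6 of 6 blocks, and BMP2 was higher by 3.75 ± 0.53 (adjusted p = 0.00042). Of the 6 genes, 2 were higher and 1 was lower in the hypoblast, where 22.5% of all genes were called.

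ID2 followed BMP2 to the hypoblast side, and ID1 lay on the epiblast side. ID2 had a median of 357 CPM over the 6 hypoblast sums and 87.1 CPM over the 6 epiblast sums, was higher in 6 of 6 blocks, and differed by 1.84 ± 0.18 (adjusted p = 3.5e-05). ID1 had a median of 91.8 CPM in hypoblast and 603 CPM in epiblast, was lower in hypoblast in 6 of 6 blocks, and differed by -2.02 ± 0.30 (adjusted p = 0.00062). With at least 10 cells per sum, ID2 remained called, while BMP2 (3.86, adjusted p = 0.083) and ID1 (-1.63, adjusted p = 0.079) were not. ID3 was lower in hypoblast in 5 of 6 blocks, with a change of -1.37 ± 0.49 (adjusted p = 0.065), and without P17, the exception, the change was -1.85 (adjusted p = 0.0017). BMP4 was higher in hypoblast in 6 of 6 blocks, but at 2.83 to 18.2 CPM, against 0.70 to 5.48 CPM in epiblast (1.79 ± 0.63, adjusted p = 0.063).

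Trophectoderm before E11 had less BMP2, ID1 and ID2 than hypoblast of the same library and day. In 6 blocks, BMP2 had 0 to 5.54 CPM with a median of 2.17 CPM in TE and 14.4 to 96.0 CPM with a median of 50.4 CPM in hypoblast. TE was lower in 6 of 6 blocks without overlap, and the difference was -4.12 ± 0.46 (adjusted p = 2.4e-05). ID1 differed by -2.03 ± 0.29 (adjusted p = 0.00017) and ID2 by -1.76 ± 0.27 (adjusted p = 0.00039), both lower in TE in 6 of 6 blocks. These 3 of the 6 genes, where 20.8% of all genes were called, were called under every alternative run.

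Against epiblast, TE had 12.2 CPM of ID1 in P8, 14.2 CPM in P9 and 45.5 CPM in P4, and epiblast had 377, 262 and 613 CPM in these libraries. ID1 was lower in TE, with a difference of -4.28 ± 0.56 (adjusted p = 9.6e-06), again under every alternative run, and was the only one of 6 called where 10.4% of all genes were. The 3 comparisons share sums of the same lineages, so their changes are not independent. ID2 differed by -0.30 ± 0.49 between TE and epiblast (adjusted p = 0.79).

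Of the other pathway genes, 36 were tested between hypoblast and epiblast, and 5 were higher and 5 lower in hypoblast. The ligand BMP7 (2.55 ± 0.41), the target MSX1 (3.03 ± 0.56), the inhibitory SMAD6 (2.54 ± 0.43) and the secreted inhibitor NOG (2.44 ± 0.74) were higher in hypoblast, whereas SOSTDC1, a secreted inhibitor (-7.40 ± 1.05), and the ligand GDF3 (-4.00 ± 0.39) were lower. Of 29 tested between TE and hypoblast, 4 were higher and 7 lower in TE, among them GATA2, GATA3 and TFAP2A, factors of the trophectoderm, on the higher side (4.43 ± 0.36, 4.13 ± 0.30 and 3.95 ± 0.37), and BMP7 (-3.30 ± 0.46) on the lower side.

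**Figure D4:**
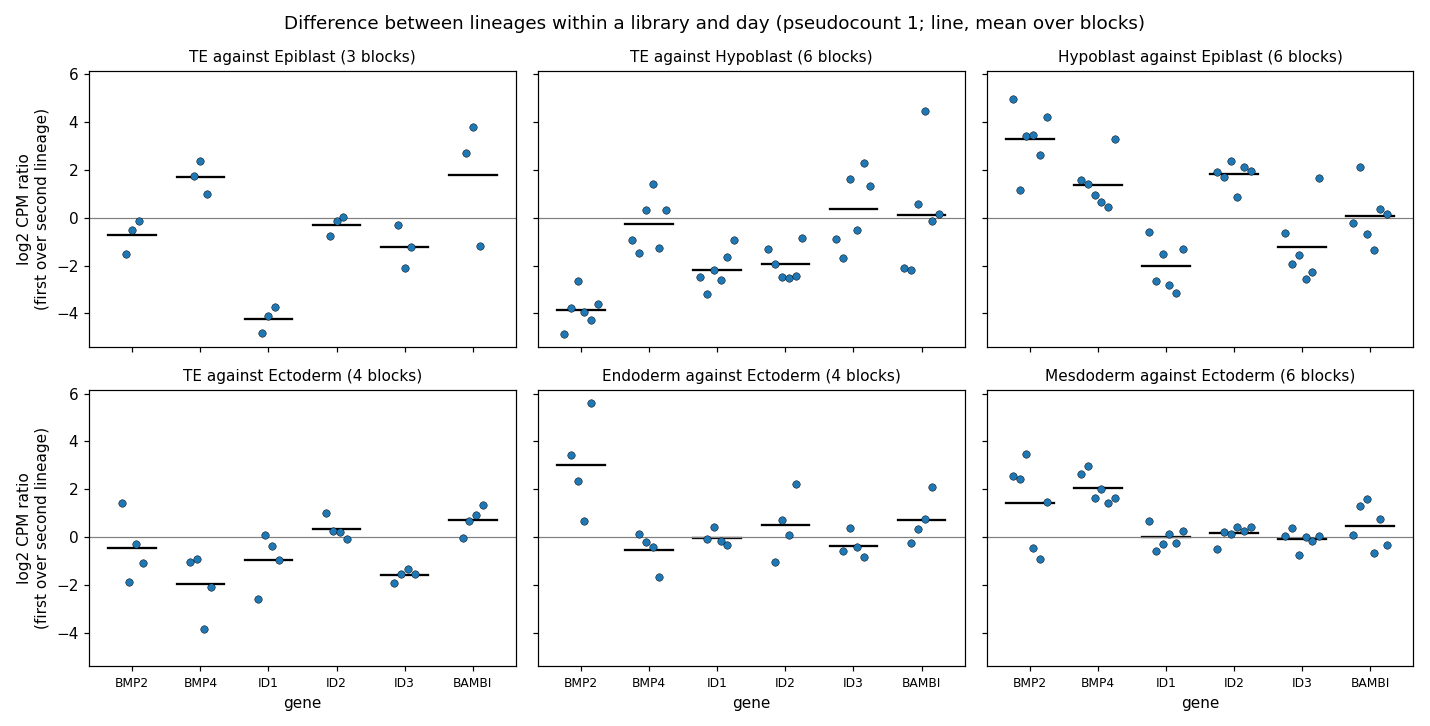
Each point is 1 library and day: the log2 ratio of CPM (pseudocount of 1) of the first lineage over the second, for each gene; the line is the mean over blocks and 0 means no difference. All 6 points of BMP2 lie above 0 for Hypoblast against Epiblast and below 0 for TE against Hypoblast, all 3 of ID1 lie below 0 for TE against Epiblast, and all 6 of BMP4 lie above 0 for Mesdoderm against Ectoderm.

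BMP4 was the gene called between the ectoderm of E11 and the epiblast of E10. It had 21.4 CPM in P6 and 79.5 CPM in P7 for Ectoderm_E11, against 3.69 CPM in P15 and 5.48 CPM in P16 for Epiblast_E10. Both later sums were above both earlier ones, and BMP4 rose by 3.78 ± 0.83 (adjusted p = 0.03). It was the only one of 6 called where 0.165% of all genes were. The sums of ID1, ID2, BMP2 and BAMBI did not overlap either, without being called. ID1 had 245 CPM and 251 CPM in P6 and P7, against 688 CPM and 592 CPM in P15 and P16. BAMBI had 18.4 CPM and 30.6 CPM, against 44.4 CPM and 41.8 CPM. ID2 had 260 CPM and 223 CPM, against 142 CPM and 198 CPM. BMP2 had 2.57 CPM and 8.74 CPM, against 1.17 CPM and 2.46 CPM, while ID3 overlapped. Each side had only 2 sums, and the share of all genes without overlap is not given, so no shift of the members is read from this. No library held both groups, so stage and library cannot be told apart. The call was lost without P7 (2.50, adjusted p = 0.67), P15 (3.49, adjusted p = 0.93) or P16 (4.13, adjusted p = 0.38), and with the library as a term the change was 2.45 (adjusted p = 1).

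The ectoderm of E11 also held transcripts of other lineages. The summed level of 6 mesoderm markers was 225 CPM in P6 and 392 CPM in P7 for Ectoderm_E11, against 36.3 CPM and 29.7 CPM in Epiblast_E10, and 881 CPM in Mesdoderm_E11. All 6 of them had counts in both sums of Ectoderm_E11, and HAND1 and MSX1, the 2 other pathway genes called in this step, rose by 6.31 ± 1.21 and 5.04 ± 1.15. Amnion markers were low, with a sum of 11 CPM and 5.16 CPM in Ectoderm_E11 and 3.29 CPM and 4.47 CPM in Epiblast_E10. The part of mesoderm cells in the BMP4 level was not tested.

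Within libraries BMP4 was higher in mesoderm than in ectoderm at every day from E11 to E14. Mesoderm had 139 CPM in P6 at E11, 145 CPM in P10 at E12, 293 CPM in P18 and 277 CPM in P19 at E13, and 336 CPM in P12 and 315 CPM in P13 at E14. Ectoderm of the same libraries had 21.4, 17.8, 93.2, 68.1, 125 and 101 CPM. All mesoderm sums lay above all ectoderm sums, and BMP4 was higher by 2.13 ± 0.21 (adjusted p = 0.00094), the only one of 6 called where 3.62% of all genes were. Without the block of library and day the change was 1.92 (adjusted p = 0.057).

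The ID genes did not separate the 2 layers. ID1 differed by 0.07 ± 0.15, ID2 by 0.24 ± 0.15 and ID3 by 0.01 ± 0.14 between mesoderm and ectoderm (adjusted p = 0.84, 0.42 and 0.99), and a p above the threshold does not show their levels to be equal. BMP2 in mesoderm was uneven, with 113 CPM in P18 and 8.86 CPM in P19 at E13. The summed level of FOXA1, FOXA2, CER1 and GSC, the 4 of 5 definitive endoderm markers matched by name to the counts (SOX17 was not), was 47.8 CPM in P18 and 14.2 CPM in P19, and its part in the BMP2 level was not tested.

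In endoderm the sums of the later days had more BMP4 and less BMP2 than those of the earlier days, and only BMP4 passed the test. BMP2 had 108 CPM in P18 and 67.5 CPM in P19 at E13 and 11.5 CPM in P11 at E14, against 171 CPM in P8 at E11 and 255 CPM in P10 at E12. BMP4 had 101, 58.7 and 107 CPM in the 3 later sums, against 13.4 CPM and 4.85 CPM in P8 and P10. The later sums did not overlap with the earlier ones for either gene, nor for ID3 (396 to 788 CPM against 230 CPM and 223 CPM). Those of ID1, ID2 and BAMBI overlapped, and the share of all genes without overlap is not given. BMP4 rose by 3.30 ± 0.82 (adjusted p = 0.026), the only one of 6 called where 1.27% of all genes were, and BMP2 changed by -2.92 ± 0.99 without being called (adjusted p = 0.14). The BMP4 call was lost without P8 (4.08, adjusted p = 0.15), without P10 (2.51, adjusted p = 0.32) and with at least 6000 detected genes per cell (2.94, adjusted p = 0.083). The authors named the earlier groups Endoderm and the later ones Defi_Endoderm, and no library held both. Age, group name and library therefore changed together.

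Against ectoderm of the same library and day, endoderm had 255 against 4.20 CPM of BMP2 in P10 at E12, 108 against 9.21 CPM in P18 and 67.5 against 12.4 CPM in P19 at E13, and 11.5 against 6.91 CPM in P11 at E14. Endoderm was higher in 4 of 4 blocks, by 3.25 ± 0.72 (adjusted p = 0.032), with 1.31% of all genes called and none of the other 5 members. That call was lost without P10 (2.36, adjusted p = 0.16), P18 (2.98, adjusted p = 0.24) or P19 (3.59, adjusted p = 0.088), with at least 10 cells per sum (3.38, adjusted p = 0.41), with at least 6000 detected genes per cell (2.74, adjusted p = 0.34) and without the block (3.93, adjusted p = 0.059). Against mesoderm, endoderm had less BMP4 in 3 of 3 blocks (-2.58 ± 0.61, adjusted p = 0.098), and 0 of 6 genes were called where 0.429% of all genes were.

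Later trophectoderm differed from ectoderm of the same library in 4 of 6 genes, where 24.9% of all genes were called. ID3 had 105 CPM in P10 at E12, 206 CPM in P18 and 243 CPM in P19 at E13 and 198 CPM in P12 at E14 for TE, against 397, 601, 609 and 579 CPM for ectoderm. TE was lower in 4 of 4 blocks without overlap, with a difference of -1.33 ± 0.21 (adjusted p = 0.00027), under every alternative run. BMP4 was lower in TE in 4 of 4 blocks (-1.67 ± 0.47, adjusted p = 0.017), which was lost without P19 (-1.17, adjusted p = 0.079), with at least 10 cells per sum (-1.23, adjusted p = 0.086) and without the block (-1.48, adjusted p = 0.16).

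BAMBI was higher in TE in 3 of 4 blocks (1.01 ± 0.27, adjusted p = 0.014), a call that was lost without P12 (0.80, adjusted p = 0.099), P18 (1.00, adjusted p = 0.067) or P19 (0.91, adjusted p = 0.081) and without the block (1.31, adjusted p = 0.17). ID2 was higher in TE in 3 of 4 blocks by 0.60 ± 0.21 (adjusted p = 0.047), a call kept under 2 of 10 alternatives. It was lost in DESeq2 (adjusted p = 0.059), with DESeq2's size factors (0.061), without the filter on low counts (0.42, adjusted p = 0.18), with at least 10 cells per sum (0.39, adjusted p = 0.56), without the block (0.47, adjusted p = 0.51) and without P10 (0.41, adjusted p = 0.21), P18 or P19 (0.61 in both, adjusted p = 0.15). ID1 had 84.3 to 530 CPM in TE and 497 to 546 CPM in ectoderm and was not called (-0.66 ± 0.35, adjusted p = 0.18).

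Within ectoderm and mesoderm the 6 genes passed no test of E13 and E14 against E11 and E12. No library held both the earlier and the later days of either layer. In ectoderm BAMBI had 67.3 to 178 CPM in the 5 later sums and 18.4 to 32.9 CPM in the 3 earlier ones, without overlap (1.84 ± 0.64, adjusted p = 0.29, 0 of 6 called where 0.239% of all genes were). Nor did ID2 (295 to 521 against 72.2 to 260 CPM) and ID3 (578 to 626 against 327 to 397 CPM) overlap there. The sums of BMP2, BMP4 and ID1 did. In mesoderm ID2 had 323 to 690 CPM in the 4 later sums, against 83.2 CPM and 185 CPM in the 2 earlier ones (1.93 ± 0.58, adjusted p = 0.094 in edgeR and 0.015 in DESeq2, 0 of 6 called where 1.04% were). Like ID2, BMP4 (277 to 336 against 139 and 145 CPM) and ID1 (412 to 763 against 339 and 394 CPM) did not overlap, while BMP2, ID3 and BAMBI did. The share of all genes without overlap is not given for either layer. From E13 to E14, 0 of 6 were called in ectoderm (0.269% of all genes) and 0 of 6 in mesoderm, where edgeR called 0% and 1815 of 23045 genes had an unadjusted p under 0.05. BMP2 in that last step had a change of -4.12 ± 1.21 in mesoderm (adjusted p = 0.41).

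The pgEpiSC lines were set against Epiblast_E10, the tissue that the labels name as their source. ID2 had 23.8 CPM in pgEpiSC_high and 7.42 CPM in pgEpiSC_low, against 142 CPM in P15 and 198 CPM in P16 for Epiblast_E10. The groups did not overlap, and ID2 was lower in pgEpiSC, with a change of -3.22 ± 0.61 (adjusted p = 0.0084). ID1 had 345 CPM and 291 CPM in pgEpiSC, against 688 CPM and 592 CPM in Epiblast_E10, and was lower, with a change of -0.77 ± 0.19 (adjusted p = 0.033). Of the 6 genes, 0 were higher and 2 lower, with 6.52% of all genes called.

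**Figure D5:**
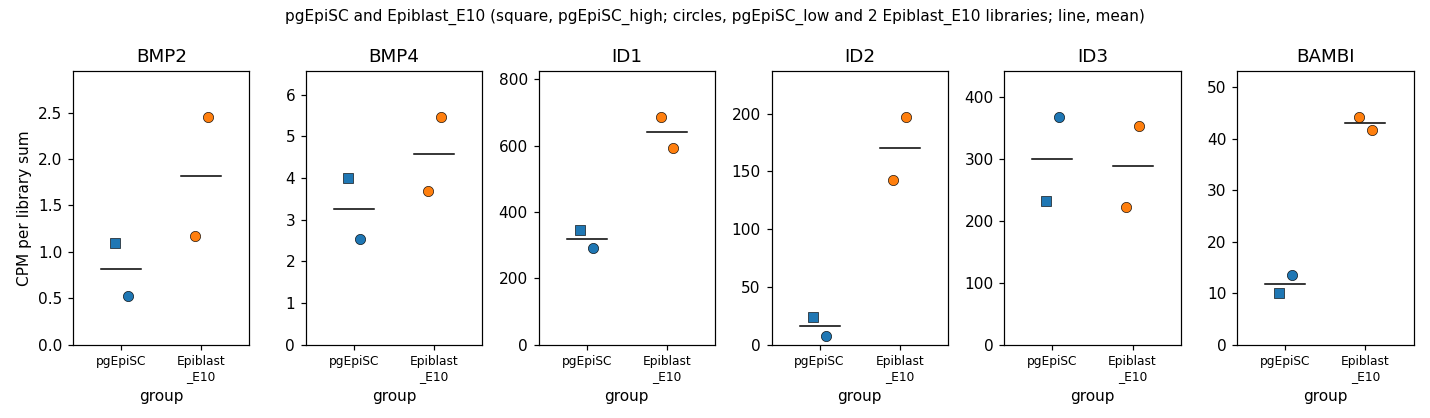
CPM of each gene in the 2 pgEpiSC libraries (left, square for pgEpiSC_high) and in the 2 Epiblast_E10 libraries (right), on linear axes from 0 that differ between genes; lines are means. ID1, ID2 and BAMBI are lower in both pgEpiSC libraries than in either epiblast library, while the ID3 points interleave.

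The ID3 values of culture and embryo overlapped. It had 232 CPM in pgEpiSC_high and 369 CPM in pgEpiSC_low, against 223 CPM and 354 CPM in Epiblast_E10, and its change of 0.31 ± 0.32 was not called (adjusted p = 0.68). Set against all epiblast days in place of E10 alone, ID3 was higher in pgEpiSC by 2.42 (adjusted p = 8.1e-05). BAMBI had 9.99 CPM and 13.5 CPM in pgEpiSC, against 44.4 CPM and 41.8 CPM in Epiblast_E10, without overlap but not called (-1.62 ± 0.70, adjusted p = 0.23). Both ligands were scarce on either side: BMP2 had 1.10 CPM and 0.52 CPM in pgEpiSC, against 1.17 CPM and 2.46 CPM, and BMP4 had 4.00 CPM and 2.52 CPM, against 3.69 CPM and 5.48 CPM.

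The 2 calls rested on few libraries. ID2 was not called without pgEpiSC_low (-2.65, adjusted p = 0.1), and ID1 was not called without P15 (-0.69, adjusted p = 0.24), P16 (-0.84, adjusted p = 0.089), pgEpiSC_low (-0.70, adjusted p = 0.24) or pgEpiSC_high (-0.88, adjusted p = 0.076). Culture and library cannot be told apart, since no library held both kinds of cell. Of 44 other pathway genes tested, 1 was higher and 6 were lower in pgEpiSC. CER1 was higher (6.90 ± 1.08), and SOSTDC1 (-6.56 ± 1.52), the receptor BMPR2 (-1.79 ± 0.46) and GDF3 (-1.76 ± 0.36) were among those that were lower. The target genes DLX5, GATA2 and TFAP2A were lower too, at -6.17, -5.51 and -5.06, but were scarce on both sides. Their deposited levels were 0.32, 0.33 and 0.25 in Epiblast_E10. In pgEpiSC_high these were 0.007, 0.015 and 0.007, and in pgEpiSC_low 0, 0.008 and 0.

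Between the 2 pgEpiSC libraries there is 1 sample per group and no test. ID2 was 23.8 CPM (exact Poisson 95% interval 21.7 to 26.1) in pgEpiSC_high and 7.42 CPM (6.04 to 9.03) in pgEpiSC_low, a log2 ratio of 1.56. ID3 was 232 CPM (226 to 239) in pgEpiSC_high and 369 CPM (359 to 379) in pgEpiSC_low, a log2 ratio of -0.67, and ID1 was 345 CPM (337 to 353) and 291 CPM (282 to 300), a log2 ratio of 0.25. The intervals cover counting error alone, so these are differences between 2 libraries and have no replicate check.

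The share of cells with at least 1 count, after each cell was thinned to 50000 counts, showed how widely each gene was used. BMP2 was detected in 94.7% of 57 cells of Hypoblast_E9 and 84.9% of 86 cells of Hypoblast_E10, against 9.6% of 94 cells of Epiblast_E10 and 1.2% of 81 cells of pgEpiSC_low. Before thinning these shares were 100%, 93.3%, 30.9% and 6.5%. BMP4 was detected in 100% of 20 cells of Mesdoderm_E13 and 97.0% of 33 cells of Mesdoderm_E11, in 75.3% of 97 cells of Ectoderm_E11 and in 16% of 94 cells of Epiblast_E10. ID3 was detected in 19.4% of 72 cells of Hypoblast_E7, in 52.8% of 127 cells of Hypoblast_E8, in 59.6% of 57 cells of Hypoblast_E9 and in 96.5% of 86 cells of Hypoblast_E10.

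Across the 39 groups, 3 of the 15 pairs of members had a Pearson correlation of deposited levels of 0.5 or more: BMP4 with ID3 (0.68), ID1 with ID2 (0.64) and BMP4 with BAMBI (0.53). Over the 32 embryonic groups from Morula_E4 on, ID1 with ID3 reached 0.69, against 0.24 over all 39, and the groups before the morula had high ID3 beside low ID1. The groups share libraries and depth, so these values describe the profiles and carry no test.

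The genes whose deposited level followed each member most closely over the 39 groups, among 6904 genes that reached a level of 3 in some group, were CYP7B1 (0.85), HABP2 (0.85) and IHH (0.84) for BMP2. They were PRTG (0.86), PLPP4 (0.84) and NRP2 (0.83) for BMP4. For the ID genes they were GNAS (0.91), RFXANK (0.89) and TSPAN6 (0.88) with ID1, TNNC1 (0.83), P3H1 (0.81) and PLOD3 (0.81) with ID2, and HIF1A (0.88), CLDN10 (0.84) and DYNLL1 (0.83) with ID3. For BAMBI they were AKNA (0.77), FGB (0.77) and EFNB1 (0.76).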

How the data were processed

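The deposited count table holds raw counts of 29214 pig genes and of 92 spike-in RNAs, which made up 1.80% of all counts and were left out here. Per the submitters' processing notes, the genome build was Sscrofa11.1 and the tools included STAR 2.7.1a, featureCounts 1.6.4 and UMI-tools. The authors also deposited, for each group, the mean and SD over cells of log2(CPM/10 + 1). Cell names give the library and not the stage, so the authors' grouping was recovered by least squares from their deposited means. Each of the 1647 cells received weight in 1 group, and recomputed means (93.1% or more of them in any group) and SDs (99.8% or more) were within 0.001 of the deposited values. All libraries use the same 96 cell barcodes.

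Counts were added per group and library. Sums of fewer than 5 cells stayed out of the tests, with lower minimums of 2 cells in Zygote, 2C and 4C and 1 in Oocyte. The tool was edgeR 4.0.16 (R 4.3.3), after filterByExpr and TMM scaling, with the quasi-likelihood F-test, two-sided, with Benjamini-Hochberg adjustment over all genes of a comparison and a threshold of 0.05. The fits were also run on simulated counts, for hypoblast late against early and for hypoblast against epiblast only. The simulation held no library effect beyond depth, and its outcome is not given here. Stages were compared in 1 fit of all embryonic sums without a block, lineages with library and day as a block (at least 3 blocks), and pgEpiSC with all epiblast sums in the fit. CPM of sums in the text are not TMM-scaled. Tables were made with pandas 2.3.3, numpy 2.4.6 and scipy 1.17.1 (Python 3.11.15) and plots with matplotlib 3.10.9.

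The alternatives were DESeq2 1.42.0, edgeR with DESeq2's size factors, all genes with a count in place of the filter, fits without 1 library at a time, at least 10 cells per sum, at least 6000 detected genes per cell (114 cells fewer), and the block added or removed. DESeq2's size factors moved the median log2 change of all genes by over 0.1 in 2 steps, by -0.47 in Morula_E4 against 8C and by -0.23 in TE_E6 against preTE_E5, where the 5 member calls kept their sign and stayed under the threshold. The 6 members, the list of 57 further BMP pathway genes (54 matched by name to the counts) and the marker lists were chosen with earlier results of these data known. Named were the members, up to 6 called pathway genes per comparison with the largest change, the 3 genes most like each member, and markers. A pathway gene beyond these was named for its role, after its value was seen. Gene spans are from RefSeq for Sscrofa11.1. No sequence is given, as none was used here. Counting intervals are exact Poisson at 95%, for counting error alone.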

Additional observations from a re-analysis of the deposited data

How the results depend on the processing

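Of 179 member values tested in 30 comparisons, 31 were called, and 10 of these were called under every alternative run. The share of all genes called ran from 0% to 30% over these comparisons. Shares of all genes under the alternatives are not given, so the counts below describe the members alone. None of the 179 changed sign as a call. Among the stage steps, 10 member calls became 28 without the filter on low counts and, over the libraries left out, ranged from 5 to 12. Late against early stages gave 6 calls, 13 without the filter. The lineage comparisons gave 13 calls, 20 without the filter, 4 with at least 10 cells per sum and 8 with no replicate block. For pgEpiSC the 2 calls became 0 to 1 over the libraries left out. With the replicate block, here the library as a term, 7 stage comparisons could be fitted, and their 3 member calls among the stage steps became 5. No paired analysis was possible for pgEpiSC because no library held both kinds of cell. The differences of the deposited means between pgEpiSC_high and pgEpiSC_low were 0.43 for ID1, 0.65 for ID2 and -0.51 for ID3, against log2 ratios of 0.25, 1.56 and -0.67 from the sums. From Morula_E4 on, 7 member pairs in place of 3 had a correlation of 0.5 or more. Most stage groups had 2 or 3 sums, so a step left with 1 sum assumes that it varies like the other groups, and the cause of the lost calls was not tested.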

Other observations

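The ID genes also varied together between single cells of 1 group and library in some sums and not in others. In 19 sums with at least 30 cells, the Spearman correlation of ID1 with ID3 over cells had a median of 0.14 and ran from -0.17 in pgEpiSC_low to 0.83 in Mesdoderm_E11 of P6. It was 0.82 in Hypoblast_E10 of P16, 0.71 in Ectoderm_E14 of P12 and 0.69 in Ectoderm_E11 of P7, but 0.29 in Hypoblast_E10 of P6 and 0.10 and 0.14 in the 2 sums of Ectoderm_E13. ID1 with ID2 had a median of 0.25 and was above 0 in 17 of 19 sums. The cells of a sum share their library, and no test was made.

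The late changes of the lineages were also set against each other, in contrasts chosen after the data were seen. The ID3 change in hypoblast exceeded that in epiblast by 2.91 ± 0.80 (adjusted p = 0.15, edgeR), and the ID3 change in TE exceeded that in epiblast by 2.38 ± 0.76 (adjusted p = 0.064). Both rested on P17, the only library of Epiblast_E9 and also of Hypoblast_E9. Without P17 they were 1.72 (adjusted p = 0.64) and 0.28 (adjusted p = 1). The hypoblast contrast then lost the E9 cells of both lineages. Of 5 such contrasts for each of the 6 genes, 0 of 30 passed the threshold. In edgeR, the tool used for these contrasts, 6 had an unadjusted p under 0.05. The share of all genes that passed is not given for them.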
